A study of Homo sapiens with 12 samples.

Results

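The genes described here are 10 cargo receptors of the early secretory pathway: ERGIC1, ERGIC2, ERGIC3, LMAN1, LMAN2, MCFD2, SURF4, KDELR1, KDELR2 and KDELR3. They were taken by gene name from 61569 gene IDs listed in the 24 h and 48 h count tables together, and all 10 were listed at both times. The set was chosen by the counts of siANLN against siNC at both times, around the low level of ERGIC1, so the changes of its members are described without a test.

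The cells were KYSE150, a commercial human line from a squamous carcinoma of the oesophagus, labelled wild type. They received a small interfering RNA that targets ANLN (siANLN) or a control siRNA labelled NC (siNC), and their poly(A) RNA was sequenced 24 h or 48 h later. The 4 groups are siNC 24 h, siANLN 24 h, siNC 48 h and siANLN 48 h, each with 3 libraries. The product of ANLN, anillin, binds actin at the cleavage furrow, and the study concerns its nuclear pool and transcription by RNA polymerase II. The labels name a single siRNA for each arm, and whether the libraries labelled as biological replicates came from separate transfections is not stated, so p-values measure the spread between these libraries.

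Proteins made in the endoplasmic reticulum (ER) leave it in COPII-coated vesicles and pass through the ER-Golgi intermediate compartment, while COPI-coated vesicles carry escaped residents and the receptors themselves back. Most cargo receptors are membrane proteins that bind soluble cargo in the lumen and show the coats a sorting signal on the cytosolic side. LMAN1 and SURF4 work mainly in export, and the KDEL receptors in retrieval of chaperones that end in KDEL or a like signal.

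The signals that these proteins meet lie at the very end of a coding sequence, and the ends of some members and ligands are shown for that reason. The 12 capitals are the last coding bases before the stop codon, read 5′ to 3′ on the coding strand from GRCh38 with the GENCODE release 29 annotation. LMAN1 and SURF4 carry a pair of neighbouring lysine codons there, the dilysine signal that COPI reads, and ERGIC1 does not. P4HB and CALR encode KDEL, and FKBP9 encodes HDEL.
ERGIC1: aagatccagctgGGCAAGATGCATtga
LMAN1: gaagcagctgccAAAAAATTCTTTtga
SURF4: atggatgagaagAAGAAGGAGTGGtaa
P4HB: cagaaagctgtgAAAGATGAACTGtaa
CALR: cccggccaggccAAGGACGAGCTGtag
FKBP9: caggaagccaaaCACGATGAACTCtaa
The capitals lie at chr5:172950802-172950813 for ERGIC1 and chr7:33005337-33005348 for FKBP9, both on the plus strand, and at chr19:12943899-12943910 on the plus strand for CALR. They lie on the minus strand at chr18:59331096-59331107 for LMAN1, chr9:133363496-133363507 for SURF4 and chr17:81844015-81844026 for P4HB.

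Library totals ran from 14891932 to 17921808 counts at 24 h and from 11805488 to 12448411 at 48 h. ANLN itself was at 11.6% of its siNC level at 24 h and at 11.1% at 48 h. All 8 markers of basal squamous epithelium were present, with 5 called lower at 24 h and 8 at 48 h by edgeR's quasi-likelihood test, and their summed level was 3210 to 3320 CPM in siANLN against 3990 to 4250 CPM in siNC at 24 h, and 2710 to 2770 CPM against 5360 to 5580 CPM at 48 h. Of 16 markers of fibroblasts, leukocytes and endothelium, COL1A1 alone exceeded 1 CPM at 24 h, while CD68, CD3E, ITGAM and VWF also did so in a group of the 48 h table. The leukocyte markers, 5 of 6 listed in the 48 h table, summed to 64.5 to 65.5 CPM in siANLN and 36.0 to 42.2 CPM in siNC, nearly all from CD68, a lysosomal protein that other cells also make, and to at most 1.68 CPM at 24 h. The siNC mean of CD68 was 0.0626 CPM in the 24 h table and 38.6 CPM in the 48 h table. The fibroblast markers, 5 of 6 listed there, summed to 9.52 to 11.8 CPM in siANLN and 18.7 to 20.0 CPM in siNC at 48 h, with COL1A1 called lower (log2 change -0.9), and the endothelial markers to 0.51 to 0.977 CPM against 1.32 to 2.1 CPM, with VWF called lower (log2 change -1.43). At 24 h the fibroblast markers summed to 5.38 to 5.82 CPM and 5.61 to 7.21 CPM, and the 4 endothelial markers to under 1 CPM in each group. The part of these shifts in the changes below was not tested. In bulk RNA, fewer cells of a kind and less RNA per cell cannot be told apart.

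ERGIC1, around which the set was chosen, had the largest change of the members, 2.14-fold lower at 24 h and 2.87-fold lower at 48 h. Its siANLN and siNC libraries did not overlap in CPM at either time. This also held for ERGIC2, ERGIC3 and KDELR3, but ERGIC3 and KDELR3 were called at neither time. At 24 h the closest KDELR3 libraries were at 9.89 CPM in siNC and 9.88 CPM in siANLN, and ERGIC3 overlapped in FPKM at 48 h. The share of all genes without overlap is not given, so nothing is read from this. ERGIC2 was 1.38-fold higher at 48 h, and LMAN2, KDELR1 and KDELR2 were higher there by 1.09-fold or less. SURF4 was 1.08-fold higher at 24 h and was in effect not measured at 48 h. ERGIC3, LMAN1 and MCFD2 had log2 changes between -0.10 and 0.06 at the 2 times, and KDELR3 had -0.24 (SE 0.12) and -0.25 (SE 0.12).

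By edgeR's quasi-likelihood test with Benjamini-Hochberg adjustment over all genes, at an adjusted p under 0.05, 1 of the 10 members was called higher at 24 h, where 5.93% of 14698 genes were called higher. In the other direction 1 of the 10 was called lower, where 4.86% of all genes were. At 48 h 9 members were tested, of which 4 were called higher and 1 lower, beside 22.2% and 21.3% of 16994 genes. For the difference between the times, 3 of 10 were called, beside 13.0% of 17625 genes. These counts are given as a description, since the same contrast had chosen the set, and nothing is read from them. The median log2 change of the members tested was 0.01 at 24 h and 0.06 at 48 h, where the median of all genes was -0.005 and -0.003.

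**Figure D1:**
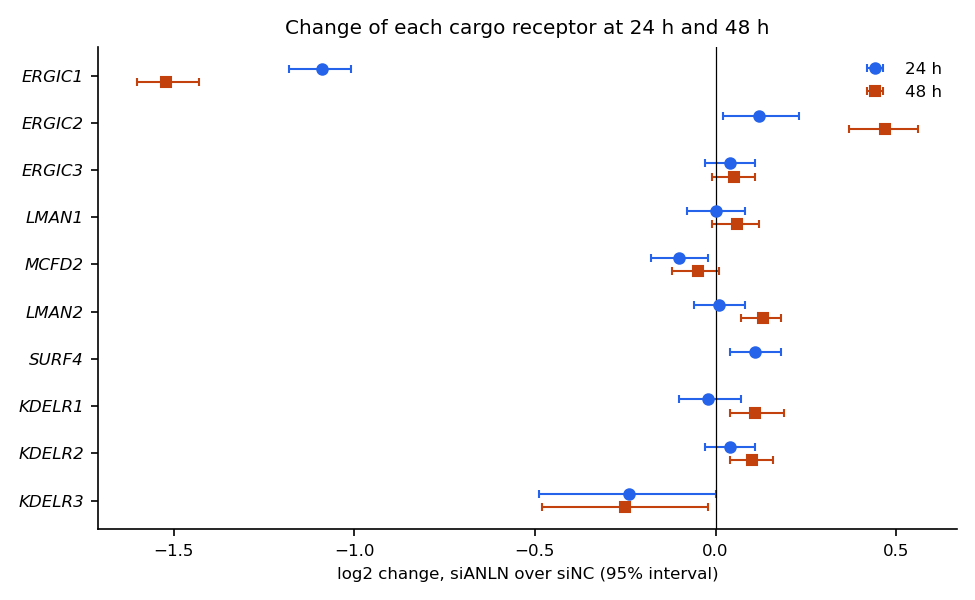
The horizontal axis gives the log2 change of each member (siANLN over siNC) with its 95% interval, as circles for 24 h and squares for 48 h, with 3 libraries per group. ERGIC1 lies at -1.09 and -1.52, ERGIC2 at 0.12 and 0.47, and every other member between -0.25 and 0.13; SURF4 has no value at 48 h.

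The scaling of the libraries bears on the small changes at 48 h. Library size alone was used in place of TMM factors, which trim extreme genes before scaling. With it, 2 members were called higher at 48 h (ERGIC2 and LMAN2) and 3 lower (ERGIC1, MCFD2 and KDELR3), again as a description. Of all 16994 genes, 3138 were called higher and 4265 lower in that setting, against 3778 and 3624 with TMM. Among all genes called for the difference between the times, 63.7% were higher with TMM and 44.5% with library size alone.

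ERGIC1 (ENSG00000113719, GRCh38 chromosome 5, 172834275 to 172952685, plus strand) encodes a small membrane protein that cycles between the ER and the intermediate compartment and can associate with ERGIC2 and ERGIC3. At 24 h its levels were 153, 153 and 164 CPM in the siNC libraries and 74.0, 71.3 and 74.9 CPM in the siANLN libraries. The siANLN libraries lay close together, and the highest of them did not reach 50% of the lowest siNC library. Their mean was 73.4 ± 1.87 CPM against 157 ± 6.54 CPM (SD, n = 3 each), or 46.8% of control, a log2 change of -1.09 (SE 0.05).

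At 48 h ERGIC1 stood at 144, 152 and 153 CPM in siNC and at 48.0, 55.8 and 52.7 CPM in siANLN. The siNC mean was 149 ± 4.85 CPM, close to that of 24 h. The siANLN mean was lower than at 24 h, at 52.2 ± 3.92 CPM or 34.9% of control. Levels at 24 h and 48 h come from separate tables, which may not have been counted alike. The log2 change was -1.52 (SE 0.04). The change at 48 h was lower than that at 24 h by a log2 difference of -0.41 (SE 0.07), given as a description. Of all genes tested, 59 (0.401%) at 24 h and 90 (0.53%) at 48 h changed by at least as much as ERGIC1 in either direction. Since the set was chosen around this change, these shares only describe its size and are not a test. Leaving out any 1 library kept the log2 change between -1.11 and -1.06 at 24 h and between -1.57 and -1.46 at 48 h.

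The 5 nearest tested protein-coding genes on each side of ERGIC1 on chromosome 5 reached out to 792 kb, measured from start to start. At 24 h 1 of 10 was called higher and 1 lower, beside 5.93% and 4.86% of all genes. At 48 h 3 were called higher and 3 lower, beside the 22.2% and 21.3% of all genes. RPL26L1, which encodes a ribosomal protein, is the next of these genes past the end of ERGIC1, on the same strand. ERGIC1 ends at 172952685 and RPL26L1 starts at 172958729, while their starts are 124 kb apart. RPL26L1 rose by a log2 change of 0.55 (SE 0.06) at 24 h and 1.23 (SE 0.07) at 48 h, with edgeR adjusted p of 2e-11 and 1.4e-53. UBTD2, whose start is 625 kb from that of ERGIC1, fell by 0.38 (SE 0.07) and 0.45 (SE 0.06) on the log2 scale, with edgeR adjusted p of 2.7e-05 and 3.2e-11.

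Across the 12 libraries the pattern of ERGIC1 was most like that of C5orf15, TAPBPL and MARCKSL1 among 9517 protein-coding genes of at least 5 CPM at both times. Likeness was the root mean square distance of log2 CPM, each taken relative to the siNC mean of its time. It was 0.1 for C5orf15, 0.17 for TAPBPL and 0.19 for MARCKSL1, on the log2 scale. C5orf15 had log2 changes of -0.94 (SE 0.05) at 24 h and -1.53 (SE 0.04) at 48 h. The other members with values at both times lay 0.77 to 1.17 from ERGIC1, with KDELR3 nearest and ERGIC2 farthest.

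**Figure D2:**
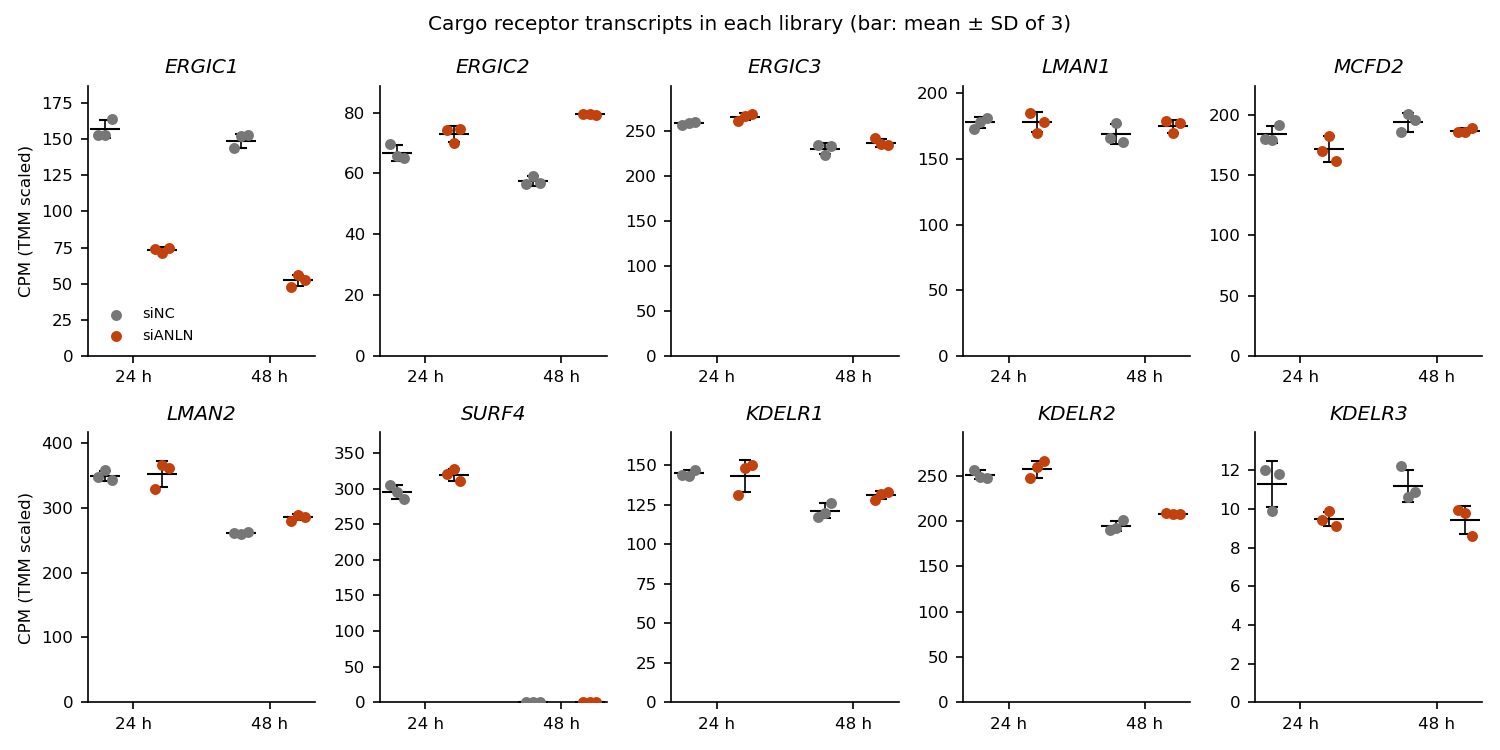
Each panel shows 1 member, with TMM-scaled CPM on a vertical axis that starts at 0, the times on the horizontal axis, a point for each library and a bar for the mean ± SD of 3. The ERGIC1 libraries split into 144 to 164 CPM in siNC and 48.0 to 74.9 CPM in siANLN, ERGIC2 separates at 48 h, and SURF4 is near 0 in all 6 libraries of the 48 h table.

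ERGIC2 and ERGIC3 form a membrane complex whose yeast counterparts retrieve escaped ER proteins from the Golgi. For ERGIC2 at 24 h, siNC libraries held 69.8, 65.8 and 65.0 CPM and siANLN libraries 74.2, 70.0 and 74.6 CPM. The groups did not overlap, but the lowest siANLN and the highest siNC library differed by a fraction of a CPM, and the log2 change was 0.12 (SE 0.05), with a 95% interval from 0.02 to 0.23. At 48 h the levels were 56.4, 59.2 and 56.8 CPM in siNC and 79.4, 79.5 and 79.3 CPM in siANLN. Here every siANLN library was well above every siNC library, with a log2 change of 0.47 (SE 0.05), and the difference from 24 h was 0.36 (SE 0.07).

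The gene ERGIC2 (chromosome 12, minus strand) overlaps FAR2, a fatty acyl-CoA reductase gene on the opposite strand, by 173 exonic bases. FAR2 rose at 48 h too, by a log2 change of 0.41 (SE 0.1, edgeR adjusted p = 0.00017). Its siNC mean was 1.3 CPM in the 24 h table and 12.6 CPM in the 48 h table, so the times may not have been counted alike. Since the strand setting of the counting was not given, reads from the shared stretch could belong to either gene, and its part in the higher ERGIC2 counts was not tested.

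ERGIC3 had nearly the same level in both arms. At 24 h it stood at 257, 259 and 260 CPM in siNC and 261, 267 and 269 CPM in siANLN, and at 48 h at 234, 223 and 233 CPM against 242, 235 and 234 CPM. The siANLN libraries were a little higher at each time, by log2 changes of 0.04 (SE 0.04) and 0.05 (SE 0.03), with 95% intervals from -0.03 to 0.11 and from -0.01 to 0.11. A pseudogene, RPL36P4, lies within ERGIC3 on the opposite strand and shares 318 exonic bases with it.

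LMAN1, also known as ERGIC-53, is a mannose-binding lectin that works with MCFD2, a small calcium-binding protein, to export coagulation factors V and VIII and other glycoproteins. LMAN1 stood at 173, 178 and 181 CPM in siNC and 185, 170 and 178 CPM in siANLN at 24 h, and at 166, 177 and 163 CPM against 179, 170 and 177 CPM at 48 h. The groups overlapped at both times. The log2 change was 0.00 (SE 0.04) at 24 h, with a 95% interval from -0.08 to 0.08, and 0.06 (SE 0.03) at 48 h, from -0.01 to 0.12. Leaving out 1 library moved the latter between 0.03 and 0.09.

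MCFD2 was at 180, 179 and 192 CPM in siNC and at 170, 183 and 162 CPM in siANLN at 24 h. At 48 h it was at 186, 201 and 196 CPM in siNC and 186, 186 and 189 CPM in siANLN. The groups overlapped at both times, and the log2 changes were -0.10 (SE 0.04) and -0.05 (SE 0.03). Leaving out 1 library moved them between -0.14 and -0.05 at 24 h and between -0.09 and -0.03 at 48 h. MCFD2 overlaps TTC7A and the antisense gene AC016722.2 on the opposite strand, by 154 and 441 exonic bases, and TTC7A fell by 0.38 (SE 0.04) on the log2 scale at 48 h (edgeR adjusted p = 2.4e-17). The siNC mean of AC016722.2 was 0.813 CPM in the 24 h table and 27.8 CPM in the 48 h table. A processed pseudogene, MCFD2P1, held 11 counts in all 24 h libraries together and 23 at 48 h.

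LMAN2, also called VIP36, is a related lectin that binds high-mannose glycoproteins between the ER and the Golgi. Its siNC libraries held 347, 358 and 343 CPM and its siANLN libraries 328, 366 and 361 CPM at 24 h, so the siANLN values spanned those of siNC, with a log2 change of 0.01 (SE 0.04). At 48 h they held 261, 259 and 262 CPM and 280, 289 and 286 CPM. The groups no longer overlapped, at 285 ± 4.70 against 261 ± 1.63 CPM (SD, n = 3 each), and the log2 change was 0.13 (SE 0.03). The difference between the times was 0.13 (SE 0.05). It lay between 0.09 and 0.17 when 1 library was left out, and was 0.14 by DESeq2, 0.08 with library size alone and 0.08 by limma on FPKM. As a description, edgeR with TMM factors called it, while DESeq2, library size alone and limma on FPKM did not.

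SURF4 is a multispanning membrane receptor for soluble secreted cargo such as lipoproteins. At 24 h it was at 305, 295 and 285 CPM in siNC and at 320, 327 and 310 CPM in siANLN, all above the siNC values. The log2 change was 0.11 (SE 0.04), and from 0.09 to 0.14 when any 1 library was left out.

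In the 48 h table SURF4 had 4, 2 and 1 counts in siNC and 4, 4 and 1 in siANLN, against 4400 to 5397 counts per library at 24 h. The same near loss covered the genes around it on chromosome 9, in controls as well. RPL7A, which encodes an abundant ribosomal protein, had 85008 counts over the 3 siNC libraries at 24 h and 29 at 48 h, SURF6 had 4837 and 1, and SURF1 had 1913 and 0. The tables of the times were thus not counted alike in this locus, and no change of SURF4 is given for 48 h. The other 9 members had control levels at 48 h between 0.746 and 1.06 times those at 24 h, on TMM-scaled CPM from separate tables.

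The KDEL receptors bind soluble ER residents that reach the Golgi and return them in COPI vesicles. KDELR1 stood at 144, 143 and 147 CPM in siNC and 131, 148 and 150 CPM in siANLN at 24 h, where the groups overlapped. At 48 h it was at 117, 120 and 126 CPM against 128, 132 and 133 CPM, with every siANLN library above every siNC library. The log2 change went from -0.02 (SE 0.04) to 0.11 (SE 0.04), and leaving out 1 library moved the latter between 0.09 and 0.15. The difference between the times was 0.15 (SE 0.06).

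KDELR2 was at 256, 248 and 247 CPM in siNC and 247, 259 and 266 CPM in siANLN at 24 h. At 48 h it was at 190, 192 and 201 CPM against 209, 208 and 208 CPM. The groups overlapped at 24 h, with a log2 change of 0.04 (SE 0.04), and not at 48 h, with a change of 0.10 (SE 0.03). DAGLB, a diacylglycerol lipase gene on the same strand, shares 376 exonic bases with KDELR2, and at 48 h its log2 change was 0.05 (SE 0.06).

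KDELR3 was the scarcest receptor, with 12, 9.89 and 11.8 CPM in siNC and 9.42, 9.88 and 9.13 CPM in siANLN at 24 h. At 48 h it had 12.2, 10.6 and 10.9 CPM against 9.94, 9.77 and 8.60 CPM. Each siANLN library was below each siNC library at both times, by a narrow margin at 24 h. The log2 changes were -0.24 (SE 0.12) and -0.25 (SE 0.12). With 105 to 206 counts per library, their 95% intervals ran from -0.49 to 0.00 and from -0.48 to -0.02.

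RefSeq promoters on GRCh38.p14, taken from 250 bases before to 50 bases after a start site, were matched for 8 of the 10 members. ERGIC1 and KDELR2 had no matched promoter and were not searched. The matched promoters were searched on both strands for elements of the unfolded protein response, the programme that raises ER chaperones. The ER stress response element, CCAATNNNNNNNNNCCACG, is in 0.0769% of 35116 promoters, and its second form, ATTGGNCCACG, in 0.0541%. Neither was in a window of a matched member. The core TGACGTGG, which is in 0.729% of promoters, was in that of KDELR3 (chr22:38467846-38468145, plus strand), 46 bases before the start site and on the opposite strand, with the capitals marking it.
KDELR3: cctggCCACGTCAccgcc
The match is a description of these letters and not evidence of binding.

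Levels per length were read from the authors' FPKM, which divide the counts of a gene by its length and the library total. In siNC at 24 h LMAN2 was highest, at 149 ± 3.46 FPKM, followed by SURF4 at 86.1 ± 2.99 FPKM (SD, n = 3 each). KDELR1 and KDELR2 came next at 64.7 ± 0.928 and 63.2 ± 1.29 FPKM, and their libraries overlapped. ERGIC3 followed at 43.3 ± 0.156, MCFD2 at 30.9 ± 1.20 and LMAN1 at 26.4 ± 0.607 FPKM, each apart from its neighbours. ERGIC2 and ERGIC1 overlapped at 11.5 ± 0.451 and 11.2 ± 0.457 FPKM, and KDELR3 was lowest at 5.87 ± 0.620 FPKM. The place of ERGIC1 rests on its annotated length of 14139 exonic bases, against 5826 for ERGIC2 and 1929 for KDELR3. Without division by length, ERGIC1 was at 157 CPM there, ERGIC2 at 66.8 CPM and KDELR3 at 11.3 CPM.

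In siANLN, ERGIC1 no longer stood beside ERGIC2 by FPKM. At 24 h its 5.22 ± 0.134 FPKM lay against 12.6 ± 0.441 FPKM for ERGIC2 and overlapped KDELR3 at 4.94 ± 0.195 FPKM. At 48 h it was 3.07 ± 0.229 FPKM, below KDELR3 at 4.86 ± 0.381 FPKM with no overlap. The order of the other members in siANLN at 24 h was that of siNC, apart from KDELR1 and KDELR2, whose libraries overlapped in both groups.

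**Figure D3:**
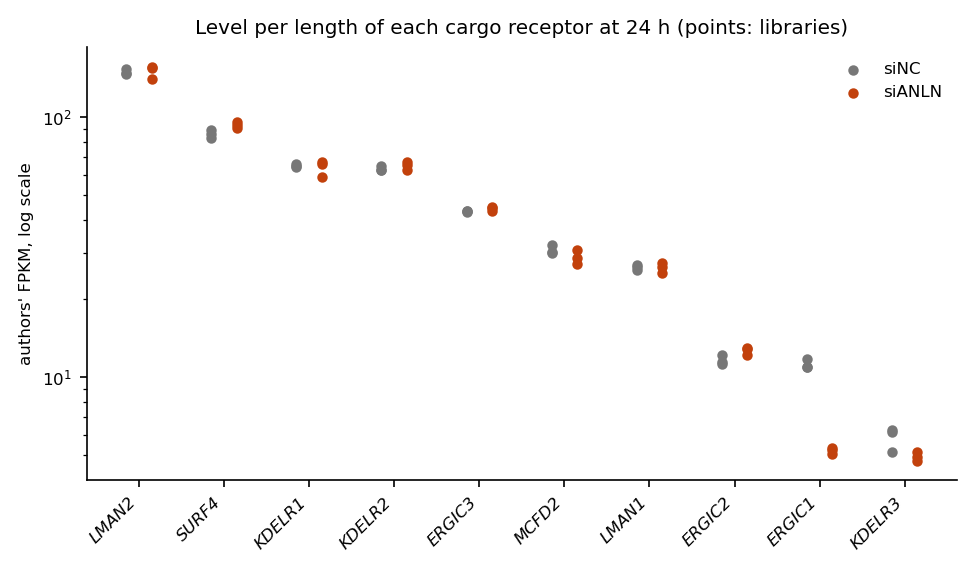
The authors' FPKM at 24 h is shown on a log axis for each member, ordered by the siNC mean, with a point for each of 3 libraries per group. In siNC the levels run from 149 FPKM for LMAN2 to 5.87 FPKM for KDELR3, and ERGIC1 shows the gap between the groups, 11.2 against 5.22 FPKM.

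The 48 h FPKM used other gene lengths. LMAN2 was at 24.8 ± 0.124 FPKM in siNC there, in the sixth place, and the length that counts and FPKM imply was 10613 bases against 2339 bases at 24 h. By TMM-scaled CPM per kilobase of GENCODE 29 exon length, a measure added after seeing this, LMAN2 was at 111 in siNC at 48 h and again the highest. The implied length of ERGIC1 was 14033 bases at 24 h and 16736 bases at 48 h, so its FPKM is not compared between the times.

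Around the members, other genes of the route were counted by direction. The p24 proteins, a family of small cargo receptors of COPI and COPII vesicles, had 4 of 10 tested genes called lower at 24 h and 0 higher, and 4 lower and 1 higher at 48 h. Over all genes 4.86% were lower and 5.93% higher at 24 h, and 21.3% and 22.2% at 48 h. The median log2 change of the family was -0.1 and -0.08, and with library size alone 6 were called lower and 0 higher at 48 h. TMED5 fell by 0.32 (SE 0.06) at 24 h and by 0.48 (SE 0.04) at 48 h on the log2 scale, with edgeR adjusted p of 0.00017 and 2.4e-28. TMED10 fell by 0.18 (SE 0.04) and 0.38 (SE 0.03), with adjusted p of 0.00016 and 7e-25, and TMED9 by 0.26 (SE 0.04) and 0.28 (SE 0.03), with adjusted p of 4.9e-08 and 1.2e-13.

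Among 11 other export receptors and adaptors, edgeR called 0 of 10 tested genes at 24 h, with 0 at an unadjusted p under 0.05, 0 by DESeq2 and 0 by limma on FPKM. At 48 h 3 of 9 were higher and 3 lower, beside 22.2% and 21.3% of all genes, and 2 and 4 with library size alone. BCAP31, an ER membrane protein in the export of other membrane proteins, rose by 0.30 (SE 0.03, edgeR adjusted p = 1.9e-22), while MIA3, the receptor for large collagen cargo also known as TANGO1, fell by 0.19 (SE 0.04, adjusted p = 3.8e-06) and its relative MIA2 fell by 0.25 (SE 0.06, adjusted p = 0.00039).

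Of 14 COPII genes tested, 0 were called higher and 2 lower at 24 h, beside 5.93% and 4.86% of all genes. At 48 h 6 were called higher and 4 lower, beside 22.2% and 21.3%, and with library size alone 4 were called higher and 5 lower. SEC13, of the outer coat, rose by a log2 change of 0.41 (SE 0.04, edgeR adjusted p = 4.8e-18), and SEC31A, its partner in the outer cage, fell by 0.32 (SE 0.04, adjusted p = 6.8e-15). SEC24C, of the inner coat that reads cargo signals, rose by 0.26 (SE 0.03, adjusted p = 1.6e-15). TFG, which organises the ER exit sites, fell by 0.28 (SE 0.04) at 24 h, with adjusted p = 3.9e-08.

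COPI and ARF genes had 0 of 14 called by edgeR at 24 h, with 4 at an unadjusted p under 0.05, 0 by DESeq2 and 0 by limma on FPKM. At 48 h 6 were called higher and 0 lower, beside 22.2% and 21.3% of all genes, and 5 and 0 with library size alone. COPE rose by 0.31 (SE 0.03, edgeR adjusted p = 9.4e-17), ARCN1 by 0.17 (SE 0.03, adjusted p = 6.8e-08) and COPA by 0.16 (SE 0.03, adjusted p = 7.8e-08), all subunits of the coatomer. The COPA change was not called by limma on FPKM.

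Of 21 SNAREs, tethers and Rab proteins, which bring vesicles to their target membrane, 2 were called higher and 2 lower at 24 h, beside 5.93% and 4.86% of all genes. At 48 h 7 were higher and 2 lower, beside 22.2% and 21.3%. GOLGA2, the Golgi tether GM130, rose by 0.28 (SE 0.05) at 24 h and 0.69 (SE 0.04) at 48 h, with edgeR adjusted p of 2e-06 and 1.7e-53. GORASP1, its partner at the cis-Golgi known as GRASP65, fell by 0.24 (SE 0.06) and 0.28 (SE 0.05) on the log2 scale, with adjusted p of 0.0057 and 1.5e-06, and its 24 h change was not called without the third siNC or the third siANLN library, at -0.2 each. RAB2A, a small GTPase of the ER-Golgi route, rose by 0.22 (SE 0.05) and 0.37 (SE 0.04), with adjusted p of 0.00028 and 1.7e-15. Pseudogenes of GOLGA2 held up to 1793 counts over the 24 h libraries, so its counts may be shared with them.

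**Figure D4:**
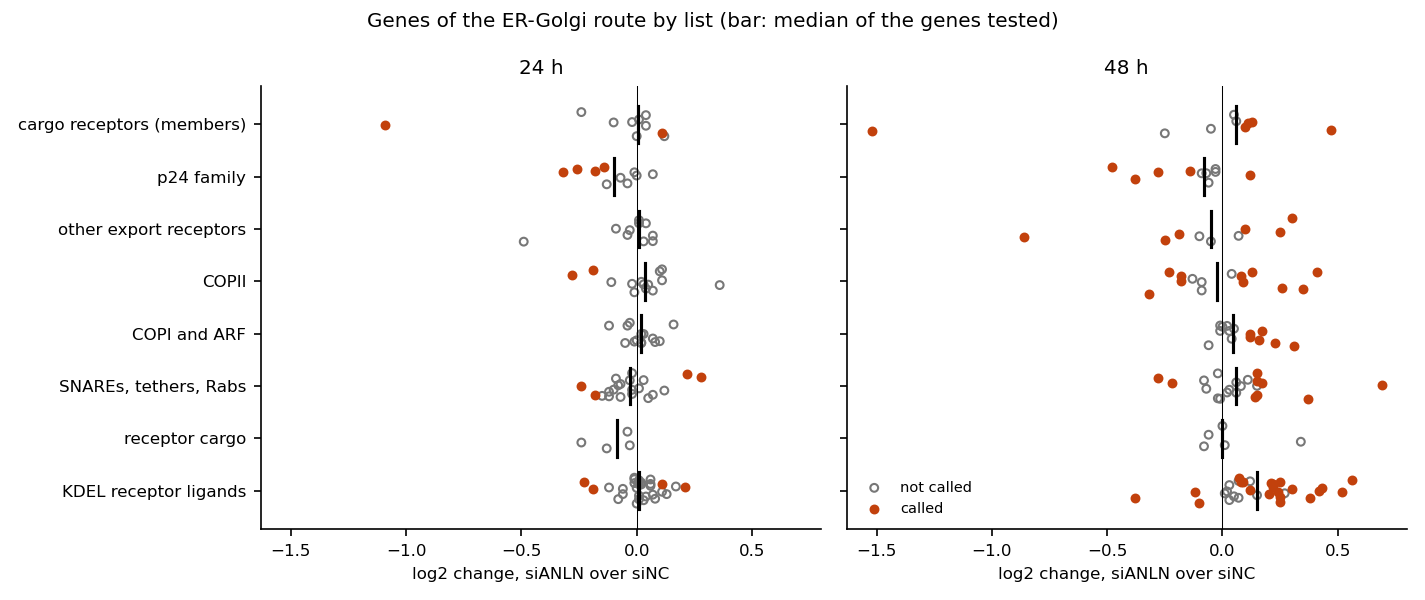
Each point is 1 tested gene, placed by its log2 change (siANLN over siNC) at 24 h on the left and 48 h on the right, filled where edgeR called it, with a bar at the median of each list. ERGIC1 is the point farthest to the left in both panels, at -1.09 and -1.52, and the median of the KDEL receptor ligands lies at 0.01 at 24 h and 0.15 at 48 h.

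The ligands of the KDEL receptors, mostly chaperones and folding enzymes of the ER lumen, moved more often upwards at 48 h. Of 31 listed by hand, 2 of 30 tested were called higher and 2 lower at 24 h, where 5.93% and 4.86% of all genes were. At 48 h 18 of 31 were called higher and 3 lower, where 22.2% and 21.3% of all genes were, and the count was 15 higher and 3 lower with library size alone. The median log2 change of the list was 0.15 at 48 h, beside -0.003 for all genes tested.

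The ends shown above divide this list. By the coding sequence, 8 ligands end in KDEL, 7 in HDEL and 2 in RDEL, and 14 have another end, such as variants of the signal. Of the 17 with these ends 12 were called higher and 2 lower at 48 h, with a median log2 change of 0.22. Of the 14 others 6 were called higher and 1 lower, with a median of 0.1, and the difference between these parts of the list was not tested.

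P4HB, the protein disulphide isomerase whose KDEL end is printed above, was at 435, 430 and 448 CPM in siNC and 608, 645 and 634 CPM in siANLN at 48 h. Its log2 change was 0.21 (SE 0.03) at 24 h and 0.52 (SE 0.02) at 48 h, with edgeR adjusted p of 1.8e-06 and 4.6e-66. CALR, the lectin chaperone calreticulin, went from 345 CPM in each siNC library to 462, 463 and 467 CPM at 48 h, a log2 change of 0.43 (SE 0.03). HSPA5, the chaperone BiP, was at 782, 749 and 769 CPM in siNC and at 943, 941 and 941 CPM in siANLN, a change of 0.30 (SE 0.02). At 24 h the log2 changes of CALR and HSPA5 were 0.06 (SE 0.04) and -0.01 (SE 0.03), and neither was called.

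Not every ligand rose. FKBP9, a prolyl isomerase with an HDEL end, fell by 0.19 (SE 0.05) at 24 h and by 0.38 (SE 0.04) at 48 h on the log2 scale, with edgeR adjusted p of 0.002 and 3.1e-17. MANF, a stress-induced secreted protein, fell by 0.23 (SE 0.07) at 24 h (adjusted p = 0.014) and had a log2 change of 0.01 (SE 0.07) at 48 h. The 24 h change of MANF was not called without the second siNC, the first siANLN or the third siANLN library, at -0.21 to -0.19. HYOU1, TXNDC5, TXNDC12 and CDNF had control levels over 4-fold apart between the tables, as SURF4 did, so their changes at the 2 times rest on unlike counts.

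**Figure D5:**
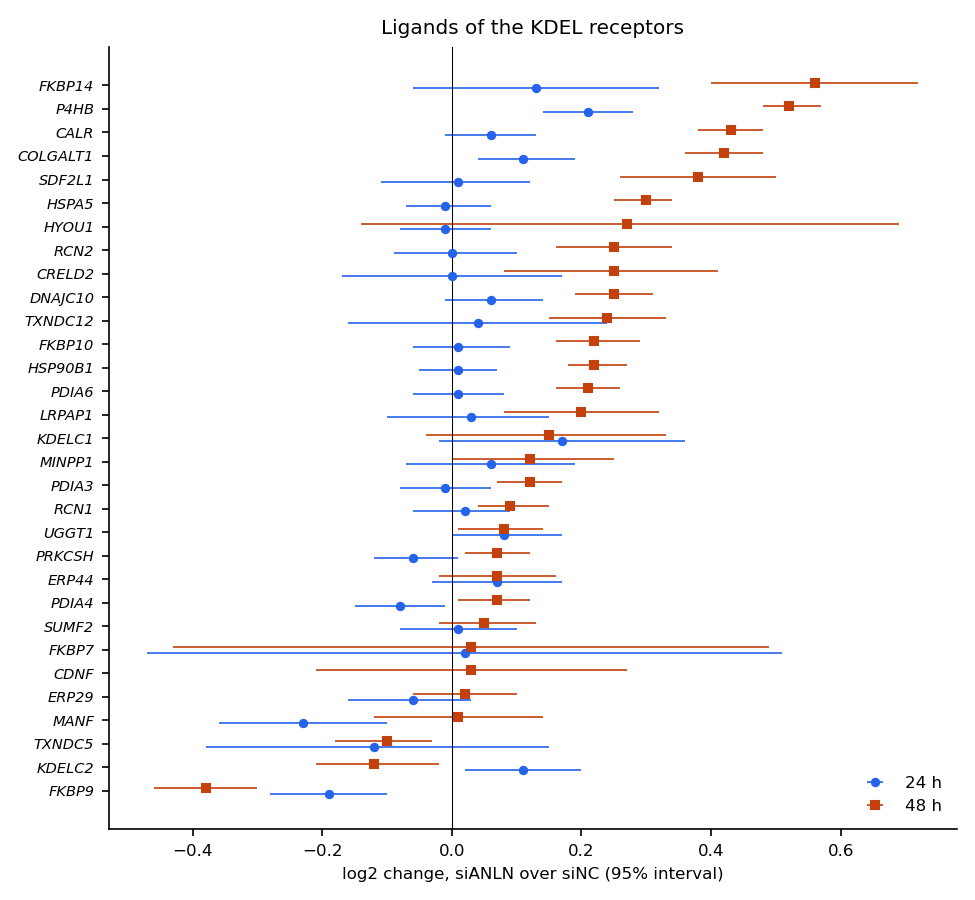
The log2 change of each KDEL receptor ligand (siANLN over siNC) is shown with its 95% interval, as circles for 24 h and squares for 48 h, in the order of the 48 h values. Most squares lie to the right of 0, up to 0.56 for FKBP14, and FKBP9 is lowest at -0.38; CDNF has no value at 24 h, and KDELC1 and KDELC2 are the symbols of POGLUT2 and POGLUT3 in the annotation.

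Known cargo of the export receptors gave few values. Of 9 listed genes, 4 were tested at 24 h and 5 at 48 h, and edgeR called 0 at each time, with 0 and 1 at an unadjusted p under 0.05, and 0 by DESeq2 and 0 by limma on FPKM. CTSC, a protease exported with LMAN1, had log2 changes of -0.04 (SE 0.04) and -0.06 (SE 0.03), and with library size alone it was the 1 gene called, lower at 48 h. F8, the coagulation factor that LMAN1 and MCFD2 carry, had -0.13 (SE 0.14) and -0.08 (SE 0.11). F5 and EPO were too low to test at both times.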

How the data were processed

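Per the submitters' processing notes, reads were trimmed with cutadapt 1.18, aligned to GRCh38 with STAR 2.7.3a and counted with featureCounts. DESeq2 1.44.0 is named there too. The authors deposited whole-number gene counts beside FPKM (counts scaled by gene length and library total), in separate tables for 24 h and 48 h. How strand was treated in the counting is not given in the sources used here. There were 58735 gene IDs at 24 h and 38318 at 48 h, of which 35484 are in GENCODE 29. For 48 h, 243 repeated lines were dropped.

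From the counts, genes that passed filterByExpr were scaled with TMM factors, and edgeR 4.0.16 in R 4.3.3 gave a robust quasi-likelihood F test over 6 libraries at each time, with Benjamini-Hochberg adjustment over all genes tested and a threshold of 0.05, two-sided. The difference between the times used all 12 libraries and the IDs in both tables. Time and table cannot be told apart, so only differences of changes were tested. Intervals (95%) come from the SE by the normal approximation. The script was tested on simulated data. Alternatives were DESeq2 1.42.0, library size alone, no filter, limma 3.58.1 on log2(FPKM + 1) or log2(FPKM + 0.1), a replicate block and leaving out each library. Library totals of 11805488 to 17921808 counts set the precision, and intervals cover the spread between libraries only.

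The members and lists were chosen with earlier results of these data known. Named genes are the members, ANLN, genes that overlap a member, the 3 genes nearest to ERGIC1 and up to 3 called genes with the smallest adjusted p per list and time. RPL26L1, UBTD2, the genes around SURF4 and the cargo genes were named after their values were seen. Promoters are from RefSeq. Protein sequences were not used here, and 1 listed gene is not reported here.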

Additional observations from a re-analysis of the deposited data

Results flagged for a closer look

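Of the members and the genes named from the lists, 14 were flagged for a log2 change at 48 h unlike that at 24 h. The genes most like ERGIC1 and its neighbours were not considered for flagging. With 1 library left out, the difference ran from -0.6 to -0.54 for C5orf15 and from -0.88 to -0.67 for TAPBPL. For MARCKSL1 it ran from -0.91 to -0.75. Adjusted p-values below are from edgeR's contrast of both changes, with Benjamini-Hochberg adjustment over 17625 genes. Among the members the difference (48 h minus 24 h) was -0.41 for ERGIC1 (SE 0.07), 0.36 for ERGIC2 (SE 0.07) and 0.13 for LMAN2 (SE 0.05), given without a test since these contrasts chose the set. It was -0.18 for TMED10 (adjusted p = 0.0069), 0.28 for BCAP31 (adjusted p = 8.6e-06), 0.31 for SEC13 (adjusted p = 8e-05) and 0.17 for SEC24C (adjusted p = 0.02). In the retrograde coat it was 0.26 for COPE (adjusted p = 0.00024) and 0.15 for COPA (adjusted p = 0.014), and for the tether GOLGA2 it was 0.42 (adjusted p = 2.6e-08). Among KDEL receptor ligands it was 0.33 for P4HB (adjusted p = 1.7e-09), 0.38 for CALR (adjusted p = 5.5e-11), 0.32 for HSPA5 (adjusted p = 8e-10) and -0.17 for FKBP9 (adjusted p = 0.049). With library size alone the differences of SEC24C and COPA were 0.12 and 0.1 and were not called. Leaving out 1 library ended the call of SEC24C (the third siNC or second siANLN library of 24 h, or the first siNC library of 48 h, at 0.14 to 0.15). It ended that of COPA without the first siNC or first siANLN library of 48 h (0.14 and 0.11). The call of FKBP9 ended by DESeq2 and, at -0.19 to -0.14, without siNC replicate 2 or 3 or siANLN replicate 1 or 2 of 24 h, or siNC replicate 1 or 2 or siANLN replicate 1 or 3 of 48 h. The control level of HSPA5 at 48 h was 0.517 times that at 24 h, and that of SEC24C 1.78 times. Time and table cannot be told apart in these differences.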

How the results depend on the processing

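The number of genes called at 24 h was 1585. It was 822 by limma on log2(FPKM + 1), 839 on log2(FPKM + 0.1) and 349 on log2(FPKM + 1) without a filter. Without a filter on counts, and in each of these 3 FPKM fits, 1 member (ERGIC1) was called at 24 h in place of 2. On log2(FPKM + 1) without a filter 4232 genes and 2 members were called at 48 h, in place of 7402 and 5, and 1475 genes for the difference between the times, in place of 2292. Leaving out 1 library at a time gave 1285 to 1421 genes at 24 h, 6631 to 6809 at 48 h and 1884 to 2310 for the difference, with 1 to 2, 5 to 6 and 2 to 4 members. The log2 change of ERGIC1 then ran from -1.11 to -1.06, from -1.57 to -1.46 and from -0.46 to -0.35. Why counts moved was not tested. TMED5, SEC31A, GORASP1 and MANF were not called at 24 h by limma on log2(FPKM + 1).

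Replicate numbers showed no pairing of the samples. Each gene's group mean was subtracted from log2(CPM + 1), and the remaining deviations were correlated between siNC and siANLN libraries of a time. They correlated at -0.0212 to 0.0305 for same-numbered libraries and at -0.0408 to 0.0366 for the others. With the replicate number as a block, 1772 genes were called at 24 h, 7355 at 48 h and 2392 for the difference, and 2, 5 and 3 members. Of 1562 log2 changes compared over 35 genes and all settings, 1455 kept their direction and side of the threshold, and 0 called values changed sign.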
